A study of Mus musculus with 6 samples.

Results

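Eicosanoid synthesis enzymes turn arachidonic acid, a fatty acid cut from membrane phospholipids, into leukotrienes and prostanoids. The 10 genes described here were chosen by name from the deposited table of 22027 genes, and all 10 were found in it. They are Alox5, Alox5ap, Lta4h and Ltc4s of the leukotriene branch, the cyclooxygenase genes Ptgs1 and Ptgs2, and Hpgds, Ptges, Tbxas1 and Ptgis, which encode terminal prostanoid synthases. They were measured by RNA-seq in mouse liver cells, with 3 libraries taken on day 3 after ischemia/reperfusion (I/R), in which blood flow is cut off and then restored, and 3 from sham-operated mice. Every library came from cells labelled as lymphatic endothelium and sorted from IL7-GFP reporter mice, in which green fluorescent protein marks the interleukin 7 gene, with 20000 to 50000 cells per sample, and column names carry the words "GFP plus". The age and strain of the mice, the sham time point, the sorting gates and the number of mice behind a library are stated in no source used here. The p-values thus measure spread between samples that may be technical.

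In the leukotriene branch, the protein made by Alox5ap presents arachidonic acid to 5-lipoxygenase, the product of Alox5, which forms leukotriene A4. Lta4h converts leukotriene A4 to leukotriene B4, an attractant of neutrophils, and Ltc4s joins it to glutathione to give the cysteinyl leukotrienes, which make vessels leaky. In the other branch the cyclooxygenases form prostaglandin H2, the shared substrate of the terminal synthases. In liver, Kupffer cells, the resident macrophages, and endothelial cells are known sources of these lipids.

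The levels are the authors' normalised counts, counts per gene divided by 1 size factor per library. Each library held 6297308 to 17086746 counts recovered from these values. The label was checked against marker genes. Lymphatic genes were present, with Prox1 at 1082 to 2177 in I/R libraries and at 849.6 to 1669 in sham libraries. The lymphatic list of 8 genes summed to 27310 to 44133 in I/R libraries and to 8456 to 30078 in sham libraries, lowest in sham library 3. Its median log2 fold change was 0.95 with 7 of 8 positive, and Pdpn and Ccl21a separated the groups. Markers of other cells were abundant too: the Kupffer cell gene Clec4f stood at 32857 to 58478 in I/R libraries and at 49954 to 54622 in sham libraries, and the hepatocyte gene Alb at 26138 to 40775 in I/R libraries and at 28530 to 43364 in sham libraries. The Kupffer cell and macrophage list of 9 genes summed to 133278 to 224681 in I/R libraries and to 197664 to 224347 in sham libraries, above the lymphatic list in each. Reln is in the lymphatic list and in the stellate cell and fibroblast list. The libraries therefore held transcripts of several cell types, and which cells carried the eicosanoid genes was not measured. In such bulk samples fewer cells of a type and less RNA per cell cannot be told apart. Of 14 marker lists, the summed level did not overlap between the groups for 2. The recruited monocyte list summed to 9311 to 11753 in I/R and 5312 to 6179 in sham libraries, and the platelet and megakaryocyte list to 645.4 to 1075 in I/R and 278.4 to 611.1 in sham libraries. None of the platelet genes separated the groups alone, and the sum was mostly Pf4 and Itgb3, while Ppbp had 9.13, 0 and 3.11 in I/R and 9.78, 0 and 23.9 in sham libraries, and Gp9 had 0 in I/R libraries and 3.26, 0 and 9.56 in sham libraries.

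The 10 members differed widely in abundance once exon length was taken into account. Divided by the length of all annotated exons in kilobases, mean levels over the 6 libraries spanned 78.4-fold, from 11.5 for Ptges to 902.7 for Ptgs1. Ptgs1, Ptgs2 (789.8) and Alox5ap (689.7) formed the upper end, and Ptgs1 exceeded Ptgs2 in 5 of 6 libraries. Tbxas1, the thromboxane A2 synthase gene (191.3), and Hpgds, the gene for hematopoietic prostaglandin D2 synthase (163.4), came next, and Alox5ap was above Tbxas1 in 6 of 6 libraries with no overlap of their ranges. Ptgis, the prostacyclin synthase gene (87.9), Lta4h (74.3) and Ltc4s (53.7) followed, with Alox5 (14.2) and Ptges, the gene for the inducible prostaglandin E2 synthase, last. The ranges over libraries of all other neighbours in this order overlapped. The order depends on the divisor, which counts every annotated exon, 9094 bases for Tbxas1 and 1420 for Alox5ap. The length of the transcripts present was not measured. Undivided, the mean normalised count was 1739 for Tbxas1 against 979.4 for Alox5ap, and 3617 for Ptgs2 against 3506 for Ptgs1. Gene coordinates given with the members are those of build GRCm38. By mean normalised count, Ptgs2 ranked 490 and Ptgs1 512 of all genes in the table.

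**Figure D1:**
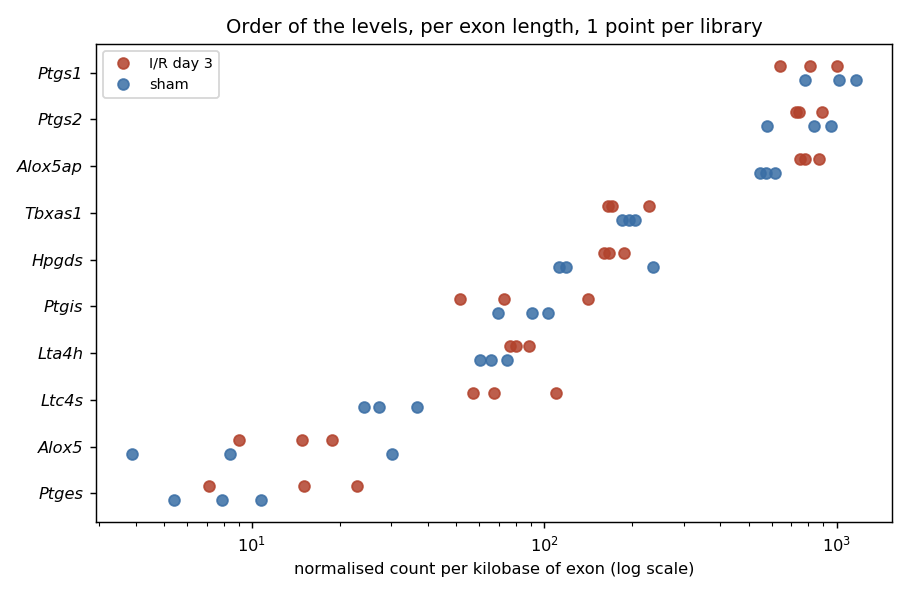
Normalised counts per kilobase of exon (log scale) of the 10 eicosanoid synthesis genes, 1 point per library, with I/R day 3 in red above sham in blue and genes ordered by their mean. Alox5ap lies at 750.0 to 872.5 in I/R and 545.1 to 615.5 in sham libraries, far above its partner Alox5 at 9.04 to 18.8 in I/R and 3.89 to 30.2 in sham libraries.

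Sequence upstream of the start is shown for the 3 members with the highest normalised counts, both cyclooxygenases and Tbxas1, to set the inducible beside the constitutive gene. It comes from the promoter table of RefSeq (build GRCm38.p6), which held 8 of the 10 members. Each run covers the 250 bases before the start, read 5′ to 3′ on the gene's strand, at chr2:36230176-36230425 on the plus strand for Ptgs1, chr1:150099781-150100030 on the plus strand for Ptgs2 and chr6:38918736-38918985 on the plus strand for Tbxas1, whose RefSeq start lies inside the gene as annotated by GENCODE. Among the other members, the windows of Hpgds, Ltc4s and Ptges also reach into the annotated gene. Capitals mark matches on either strand to any of 5 motifs: TATAAA (found in some core promoters), GGGCGG (GC box), CGTCA (the core of a cyclic AMP response element), TTNNGCAA (the type bound by C/EBP factors) and GAGGAAG (the purine box of Ets factors).
Ptgs1: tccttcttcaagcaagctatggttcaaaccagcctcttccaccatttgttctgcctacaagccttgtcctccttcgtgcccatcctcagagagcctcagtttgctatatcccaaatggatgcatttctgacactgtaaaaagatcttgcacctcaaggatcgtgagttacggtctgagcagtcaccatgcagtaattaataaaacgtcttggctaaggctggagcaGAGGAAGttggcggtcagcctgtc
Ptgs2: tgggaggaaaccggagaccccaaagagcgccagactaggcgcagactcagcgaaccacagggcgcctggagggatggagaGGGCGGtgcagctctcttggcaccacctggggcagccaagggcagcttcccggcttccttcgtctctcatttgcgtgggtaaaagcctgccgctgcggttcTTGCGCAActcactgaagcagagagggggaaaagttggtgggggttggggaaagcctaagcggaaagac
Tbxas1: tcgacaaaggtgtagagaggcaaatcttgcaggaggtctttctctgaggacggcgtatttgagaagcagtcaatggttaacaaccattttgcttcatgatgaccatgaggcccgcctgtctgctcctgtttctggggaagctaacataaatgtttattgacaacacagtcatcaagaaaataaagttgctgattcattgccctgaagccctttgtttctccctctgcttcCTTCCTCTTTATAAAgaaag
Ptgs2 held GGGCGG at -170 to -165 from the start and TTNNGCAA at -69 to -62, where it reads the same on both strands. Ptgs1, whose GC content was 48.0% against 61.6% for Ptgs2, held only GAGGAAG, at -24 to -18. In Tbxas1, GAGGAAG on the opposite strand at -20 to -14 lay next to TATAAA, whose matches on the 2 strands overlap between -13 and -6. Over all 32851 windows of this length in the table, GAGGAAG was present in 10.6%, GGGCGG in 32.7%, TATAAA in 12.4%, TTNNGCAA in 9.56% and CGTCA in 17.8%. A match is a run of letters and not a measured binding site.

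Among the leukotriene genes, Alox5ap, Lta4h and Ltc4s did not overlap between the groups, with all I/R libraries above all sham libraries, and Alox5 did overlap. None of the 4 passed the test. Over the 10 members, limma called 0 higher and 0 lower at an adjusted p of 0.05, where it called 0.0298% of the 13434 tested genes higher and 0.0% lower. On the recovered counts, edgeR called 0 members, where it called 0.00744% of genes higher and 0.0% lower. DESeq2 also called 0 members, where it called 0.21% of genes higher and 0.042% lower. At an unadjusted p under 0.05 there were 2 members by each of the 3 tools, and by limma these were Alox5ap and Ltc4s. The background at that level was 4.44% of tested genes by limma, 3.98% by edgeR and 3.46% by DESeq2. The groups did not overlap for 3 of 10 members, all 3 higher after I/R and all 3 in the leukotriene branch, while 5.11% of tested genes were higher and 4.48% lower in every I/R library. Of the 10 members 7 had a positive log2 fold change, with a median of 0.26. Over all tested genes 52.1% were positive and the median was 0.02.

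Alox5ap (chr5:149264767-149288153) had normalised counts of 1109, 1239 and 1065 in I/R libraries 1, 2 and 3, against 774.0, 874.0 and 815.0 in sham libraries 1, 2 and 3. The lowest I/R library was 1.219 times the highest sham library. The log2 fold change was 0.47 (SE 0.17, 95% interval 0.10 to 0.84, limma adjusted p = 0.985), and it stayed between 0.41 and 0.52 over all alternatives. Ltc4s (chr11:50236461-50238616) had 57.8, 111.4 and 68.5 in I/R libraries, against 24.4, 37.2 and 27.5 in sham libraries. These values rest on 38, 183 and 88 recovered counts in I/R and 15, 56 and 23 in sham libraries. Ltc4s had the largest log2 fold change of the 10 members, 1.35 (SE 0.48, 95% interval 0.28 to 2.42, limma adjusted p = 0.985), and DESeq2 gave 1.41 (adjusted p = 0.968, and 0.596 to 1.0 over all alternatives).

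Lta4h (chr10:93453411-93484875) had 465.6, 487.1 and 541.1 in I/R libraries, against 400.9, 369.2 and 455.3 in sham libraries. The separation was narrow, since the lowest I/R library was 1.02 times the highest sham library, and the log2 fold change was 0.29 (SE 0.20, limma adjusted p = 0.985). Lta4h and Ltc4s act on the same substrate. Their ratio per kilobase was 1.34, 0.726 and 1.31 in I/R libraries 1, 2 and 3, against 2.73, 1.65 and 2.75 in sham libraries. Every I/R library was lower. This ratio is made of the values given above, in which Ltc4s differed more than Lta4h, and Ltc4s rests on 15 to 183 recovered counts. The other ratios between members given below overlapped between the groups. The recruited monocyte list also separated the groups by its sum. In it, Ccr2 was at 307.3, 429.2 and 237.5 in I/R libraries and at 44.0, 69.8 and 83.6 in sham libraries. Of its 8 genes 5 separated the groups alone, all higher after I/R, where 5.11% of tested genes were. Limma called 1 of the 8 higher, F13a1, where it called 0.0298% of tested genes higher. Its log2 fold change was 2.18 (SE 0.28, limma adjusted p = 0.0416, and 1.6e-09 to 0.970 over all alternatives). The largest part of the sum was Fn1, at 6105 ± 1417 in I/R and 3164 ± 330 in sham libraries (SD, n = 3 each). Ly6c2 overlapped, with means of 17.2 in I/R and 17.5 in sham libraries. Itgam and Plac8 overlapped too, and Plac8 had a log2 fold change of -0.12. The part of this list in these differences was not tested. The lymphatic list was also higher after I/R at the median and lowest in sham library 3. Without that library the log2 fold change was 0.46 for Alox5ap, 0.37 for Lta4h and 1.31 for Ltc4s. Sham library 1, at 23431, also summed below every I/R library, and sham library 2, at 30078, above I/R library 2 alone. Leaving out sham library 3 thus does not make the list equal in the groups, and its part was not tested. Of the mast cell and basophil list, Cpa3, Mcpt4 and Fcer1a were at 0 in all 6 libraries, while Kit, Gata2 and Hdc, which other cells express too, were present in all 6 with positive log2 fold changes of 0.38, 0.09 and 0.32. Ms4a2 of that list had 8 recovered counts in I/R library 1 and 11 in sham library 3, and Mcpt8 had 1 in sham library 2. The mast cell and basophil list summed to 244.1 to 465.6 in I/R and 252.1 to 346.6 in sham libraries. Of the neutrophil list, whose sum was 952.5 to 1338 in I/R and 1221 to 1266 in sham libraries, Ly6g and Retnlg were at 0 in all 6. S100a8 at 9.56 to 35.9, S100a9 at 15.96 to 86.4 and Csf3r at 884.0 to 1235 were present in all 6, and Csf3r made up most of the sum.

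Alox5 (chr6:116410077-116461178) had 60.9, 37.1 and 77.1 in I/R libraries, against 123.8, 15.96 and 34.7 in sham libraries. Sham library 1 was the highest of the 6 and sham library 2 the lowest, so the sham spread enclosed all I/R values. The group means were 58.4 ± 20.1 in I/R and 58.2 ± 57.7 in sham libraries (SD, n = 3 each), and the log2 fold change was 0.43 (SE 0.70, limma adjusted p = 0.987) on the log scale but 0.02 in DESeq2. Without sham library 1 it was 1.21, and without sham library 2 it was -0.23. Alox5ap exceeded Alox5 per kilobase by 52.7, 96.5 and 40.0 times in I/R libraries and by 18.1, 158.3 and 68.0 times in sham libraries.

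**Figure D2:**
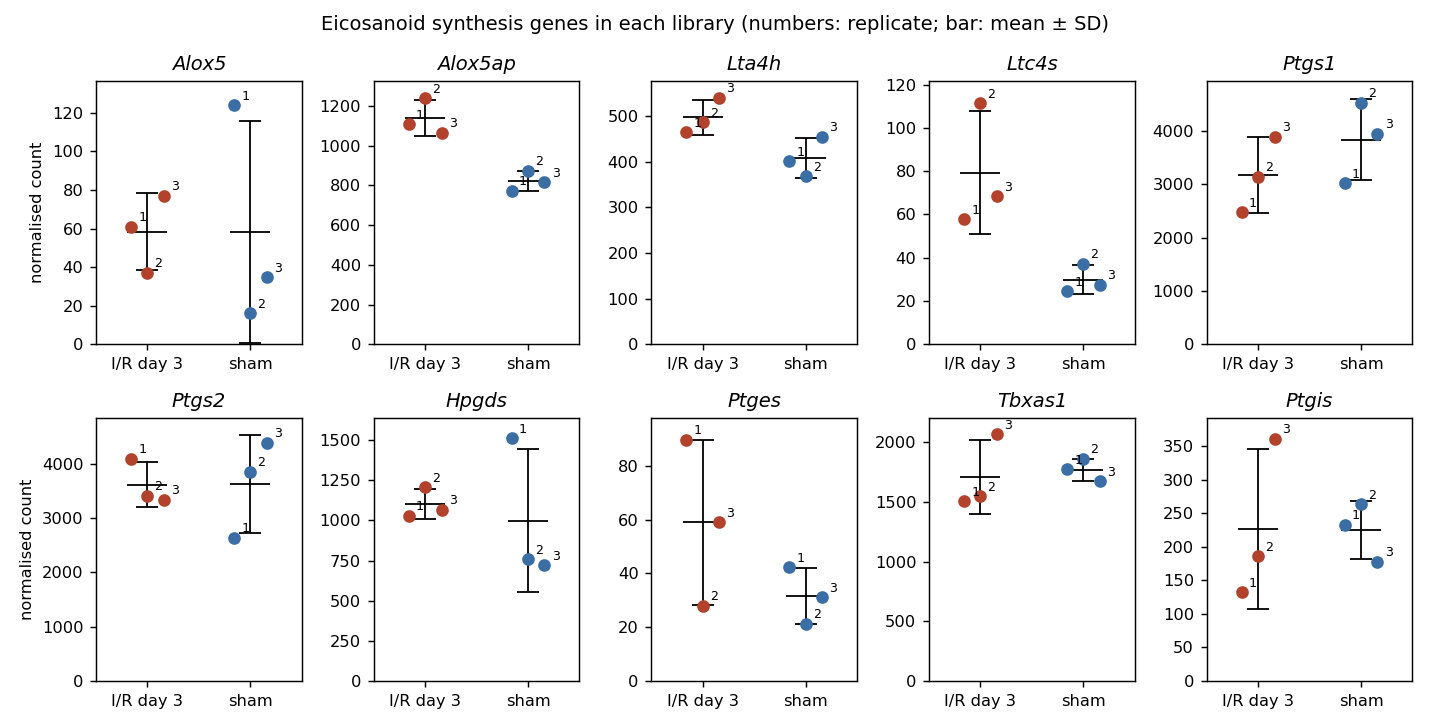
Normalised counts of each member in each library (axes from 0), I/R day 3 left in red and sham right in blue, with the replicate number beside each point and bars for the mean ± SD of 3 libraries. The groups do not overlap for Alox5ap, Lta4h and Ltc4s, and sham library 1 stands highest for Alox5 and Hpgds.

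The cyclooxygenases were the most abundant members and did not separate the groups. Ptgs1 (chr2:36230426-36252272), the largely constitutive enzyme, had 2483, 3142 and 3897 in I/R libraries, against 3024, 4535 and 3954 in sham libraries. The log2 fold change was -0.28 (SE 0.22, 95% interval -0.76 to 0.20, limma adjusted p = 0.985), and it lay between -0.44 and -0.11 with single libraries left out. Ptgs2 (chr1:150100031-150108227), the enzyme induced by inflammatory signals, had 4091, 3406 and 3336 in I/R libraries, against 2638, 3847 and 4384 in sham libraries. The I/R libraries all lay within the sham range, and the log2 fold change was 0.02 (SE 0.21, 95% interval -0.45 to 0.49, limma adjusted p = 0.998). Its sign turned with the library left out, with -0.19 without sham library 1 and 0.17 without sham library 3. Per kilobase, Ptgs1 made up 41.7%, 52.1% and 57.9% of the sum of both genes in I/R libraries, against 57.5%, 58.2% and 51.5% in sham libraries.

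Of the terminal synthases, Hpgds and Ptges had positive estimates and Tbxas1 and Ptgis estimates near 0, and the groups overlapped for all 4. Hpgds (chr6:65117293-65144908) had 1030.1, 1205 and 1067 in I/R libraries, against 1514, 759.6 and 721.8 in sham libraries. As for Alox5, sham library 1 was the highest of all and the other sham libraries lay below every I/R library. The log2 fold change was 0.22 (SE 0.27, limma adjusted p = 0.985), and 0.57 without sham library 1 (adjusted p = 0.414, and 0.414 to 1.0 over all alternatives). With sham library 1 left out, 5 members were above sham in all I/R libraries (Alox5, Alox5ap, Lta4h, Ltc4s and Hpgds), where 12.3% of tested genes were. Another 1, Ptgs1, was below, where 11.8% were. For Alox5 and Hpgds this separation follows from leaving out the library in which they were highest, so the count of 5 is a description and no test. The Hpgds value was 0.07 when sham library 2 was left out and 0.03 when sham library 3 was. Sham library 1 was also the highest for the fibroblast gene Col1a1, at 1973 against 246.2 to 974.1 in the other libraries, and the summed stellate cell and fibroblast list was 5993 to 7998 in I/R and 1846 to 9530 in sham libraries. Their part in the Alox5 and Hpgds values was not tested.

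Tbxas1 (chr6:38875404-39084585) had the smallest ratio of highest to lowest library of the 10 members, 1.37, with 1508, 1548 and 2068 in I/R libraries, against 1773, 1863 and 1677 in sham libraries. Its log2 fold change was -0.07 (SE 0.18, 95% interval -0.46 to 0.33, limma adjusted p = 0.995). Ptgis (chr2:167191805-167240604) had 132.4, 186.3 and 361.2 in I/R libraries, against 233.0, 263.4 and 178.1 in sham libraries. The I/R libraries held both the lowest and the highest value, and the log2 fold change was -0.10 (SE 0.36, limma adjusted p = 0.995), with -0.50 when I/R library 3 was left out and 0.22 when I/R library 1 was. I/R library 3 was also the highest for the smooth muscle gene Myh11, at 306.0 against 25.1 to 164.6 in the other libraries. The smooth muscle and mesothelium list summed to 112.6 to 464.0 in I/R and 105.8 to 382.9 in sham libraries, and most of the 464.0 was Myh11. Cnn1 of this list was also highest in I/R library 3, at 14.0. Tagln was highest in sham library 1, at 205.3 against 124.6 in I/R library 3, and Msln, Upk3b and Wt1 were highest elsewhere. A relation of these genes to Ptgis was not tested. Thromboxane and prostacyclin have opposing effects on platelets and vessel tone, and Tbxas1 exceeded Ptgis per kilobase by 3.22, 2.35 and 1.62 times in I/R libraries and by 2.15, 2.00 and 2.66 times in sham libraries.

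Ptges (chr2:30889471-30929863) was the lowest member, with 89.8, 28.0 and 59.2 in I/R libraries, against 42.4, 21.3 and 31.1 in sham libraries. I/R library 2 lay below sham libraries 1 and 3, and these values rest on 26 to 76 recovered counts per library. The log2 fold change was 0.78 (SE 0.58, 95% interval -0.51 to 2.08, limma adjusted p = 0.985), and it was 0.41 when I/R library 1 was left out and 1.23 when I/R library 2 was.

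**Figure D3:**
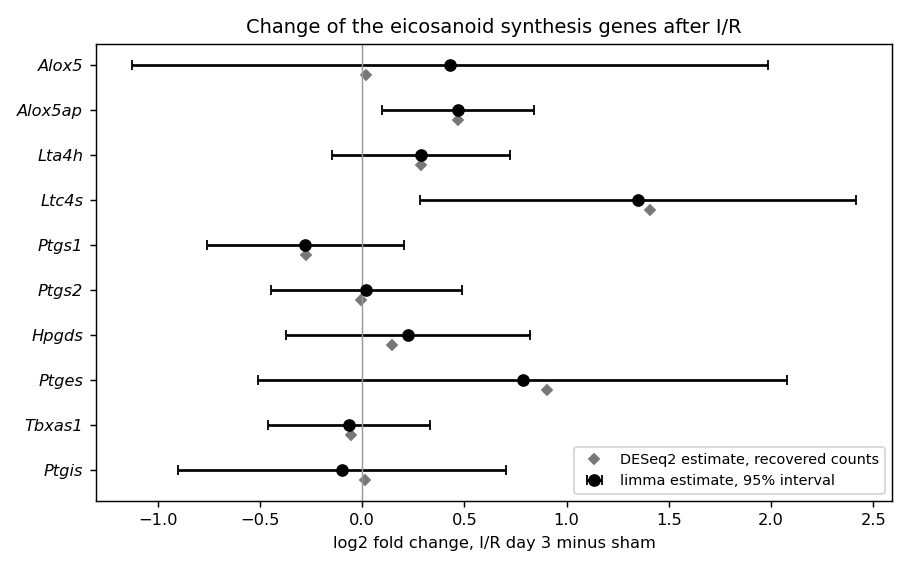
Log2 fold change of each member, I/R day 3 minus sham, with the limma estimate on log2(normalised count + 1) and its 95% interval in black and the DESeq2 estimate from recovered counts as grey diamonds. The intervals of Alox5ap (0.10 to 0.84) and Ltc4s (0.28 to 2.42) lie above 0, although neither gene passed after adjustment.

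**Figure D4:**
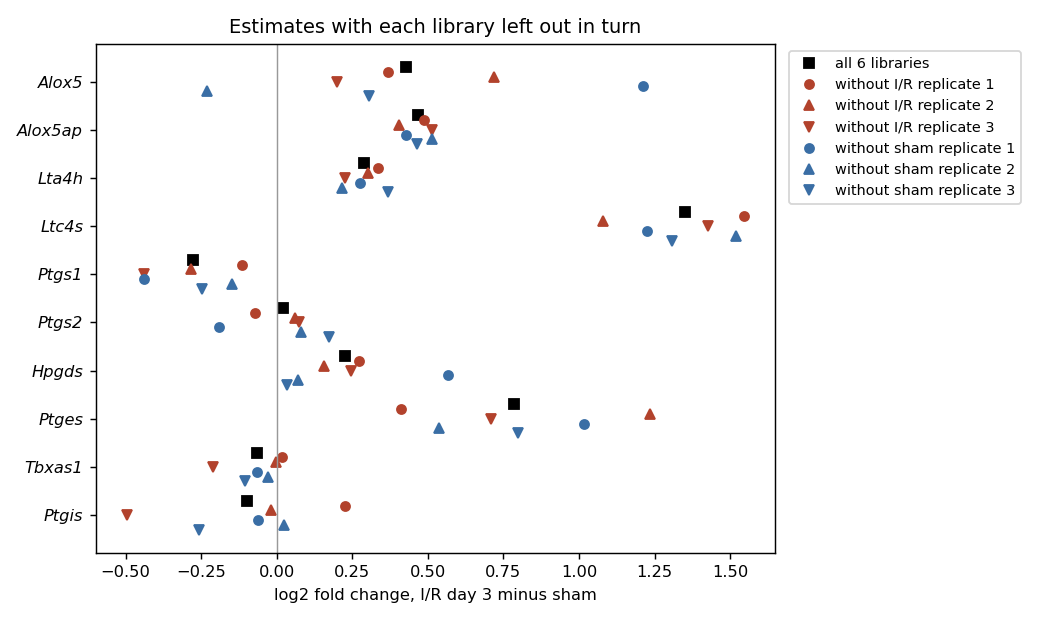
Log2 fold change of each member, I/R day 3 minus sham, from all 6 libraries (black squares) and with each I/R (red) or sham (blue) library left out in turn. Alox5ap, Lta4h, Ltc4s, Hpgds (0.03 to 0.57) and Ptges (0.41 to 1.23) stay above 0 throughout, and Ptgs1 (-0.44 to -0.11) below. Alox5 runs from -0.23 to 1.21 and Ptgis from -0.50 to 0.22.

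Members that share a profile over the libraries with other genes were listed by the root mean square difference of centred log2 values over 6 libraries, among 10836 genes with a mean of at least 50. The nearest to Ptgs2 were Uxs1 (0.05) and Sra1 (0.05), and to Ptgs1 Dyrk2 (0.03) and Arf3 (0.04). The nearest to Tbxas1 were Arid1b (0.05) and Pou6f1 (0.06), and to Hpgds Ampd3 (0.08) and Fam114a1 (0.08). These are descriptions over 6 libraries.

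By position, Alox5, Hpgds and Tbxas1 lie on chromosome 6 and Ptgs1, Ptges and Ptgis on chromosome 2. Exons of Alox5ap, Ltc4s, Ptgs1, Tbxas1 and Ptgis overlap an annotated gene on the opposite strand that is not in the table. Whether the counting used strand is not given in the sources used here, so reads of such partners cannot be told apart from those of the members.

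The rest of the pathway was described with 7 lists that held 68 genes of the table, of which 55 were tested. Limma called 0 higher and 0 lower and had 5 at an unadjusted p under 0.05, against 4.44% of all tested genes. For edgeR the counts were 0 and 4, against 3.98% of all tested genes at that level. DESeq2 called 1, Dpep2, where it called 0.21% of its tested genes higher. Of the 55 genes 26 had a positive and 29 a negative log2 fold change, with a median of -0.01. There were 4 higher in every I/R library (Anxa1, Alox12, Dpep2 and Cyp4f18) and 3 lower in every I/R library (Lpcat2, Ggt1 and Cyp4a14), which is close to the 5.11% and 4.48% over all tested genes. Alox12 passed the filter on the mean through its I/R libraries, and Ggt1 and Cyp4a14 through their sham libraries, so that their separation is partly set by that filter.

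Over 11 tested genes of other lipoxygenases and leukotriene metabolism, 7 of them positive, the median log2 fold change was 0.40. Genes that act on finished leukotrienes included Dpep2, the pathway gene called by DESeq2 alone. Dpep2, whose product is a dipeptidase that converts leukotriene D4 to E4, had 89.8, 168.0 and 144.0 in I/R libraries, against 37.5, 28.6 and 13.1 in sham libraries. Its log2 fold change was 2.37 (SE 0.51, limma adjusted p = 0.4997), and DESeq2 gave 2.36 (adjusted p = 0.0118, and 0.0118 to 1.0 over all alternatives). Cyp4f18, which encodes an enzyme that oxidises leukotriene B4 in mouse neutrophils, had 208.4, 216.1 and 203.2 in I/R libraries, against 154.8, 59.9 and 160.1 in sham libraries. Its log2 fold change was 0.87 (SE 0.38, limma adjusted p = 0.985), and 0.41 without sham library 2. The related Cyp4f13 had -0.40 (SE 0.34). The 12-lipoxygenase gene Alox12, known from platelets, had 25.9, 24.4 and 45.2 in I/R libraries, against 0, 11.3 and 6.0 in sham libraries. The platelet gene Pf4 stood at 442.2 to 941.2 in I/R and 106.4 to 443.2 in sham libraries, whereas Ppbp and Gp9 of the same list were not higher after I/R, and their relation to Alox12 was not tested.

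Upstream, the genes that free arachidonic acid or return it to membranes had a median log2 fold change of 0.01 over 14 tested members, 7 of them positive. Pla2g4a, the gene for cytosolic phospholipase A2, was at 981.5 ± 187 in I/R and 941.5 ± 214 in sham libraries (SD, n = 3 each). Anxa1, which encodes annexin A1, a protein that dampens this release and has roles in leukocyte traffic, had 310.4, 432.3 and 444.5 in I/R libraries, against 265.6, 128.4 and 100.4 in sham libraries, and the fold change on the log2 scale was 1.37 (SE 0.35, limma adjusted p = 0.722, and 0.0583 to 1.0 over all alternatives). Lpcat2 and Acsl4, which act in phospholipid remodelling and in activating arachidonic acid, had -0.28 (SE 0.17) and -0.33 (SE 0.21).

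The median log2 fold change was -0.01 over 5 other prostaglandin synthases and reductases, -0.05 over 6 genes of breakdown and transport, -0.14 over 4 leukotriene and lipoxin receptors, 0.20 over 6 prostanoid receptors and -0.14 over 9 genes of the cytochrome P450 branch. Among the synthases and reductases, Ptges2 had a log2 fold change of 0.53 (SE 0.36), Fam213b 0.24 (SE 0.33) and Cbr1 -0.19 (SE 0.19). Of the breakdown and transport genes, Ptgr1 had 0.22 (SE 0.35), Ptgr2 -0.15 (SE 0.24) and the exporter gene Abcc4 -0.18 (SE 0.25), while Hpgd, which inactivates prostaglandins, was abundant at 5196 ± 874 in I/R and 5069 ± 500 in sham libraries (SD, n = 3 each). Of the receptors, Cysltr1 for cysteinyl leukotrienes had a log2 fold change of 0.42 (SE 0.31), the lipoxin receptor gene Fpr2 -0.20 (SE 0.21), the chemerin receptor gene Cmklr1 -0.08 (SE 0.34) and the prostaglandin E2 receptor genes Ptger2 and Ptger4 0.14 (SE 0.36) and -0.19 (SE 0.20). In the cytochrome P450 branch Cyp2j6 had 0.51 (SE 0.31), Cyp2c44 -0.20 (SE 0.39) and Cyp4a12a -0.39 (SE 0.56). The limma adjusted p was 0.985 to 0.995 for each of these 14 genes with a fold change given.

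**Figure D5:**
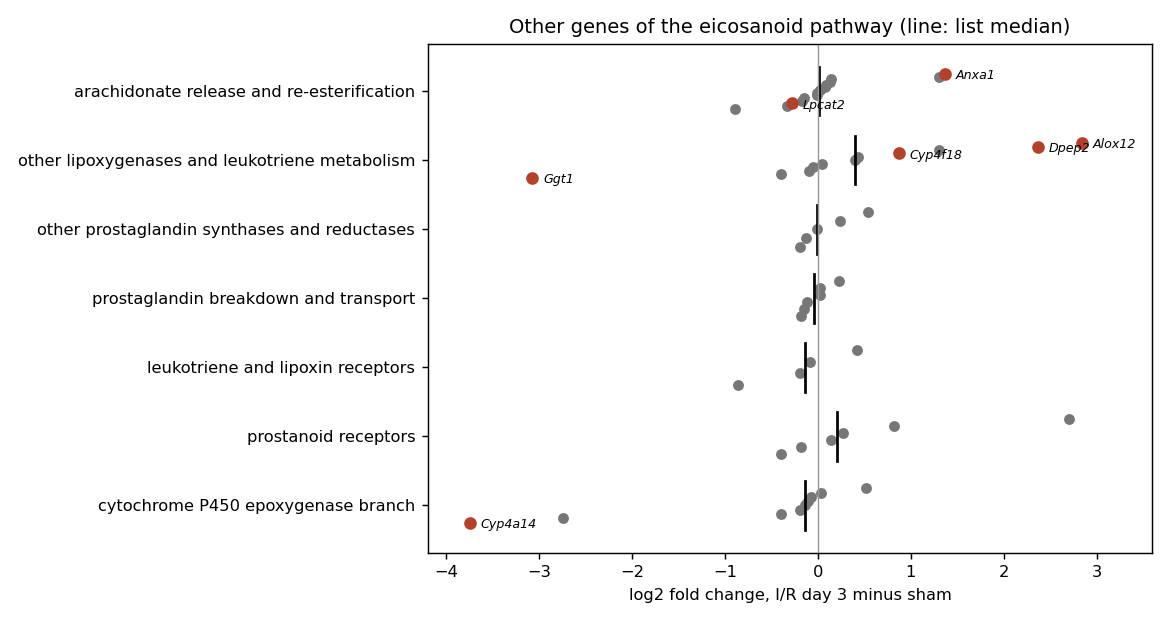
Log2 fold change, I/R day 3 minus sham, of the 55 tested genes in 7 lists of the wider eicosanoid pathway, 1 point per gene, with list medians as black lines. Red points with names mark the 7 genes whose groups did not overlap, among them Dpep2 at 2.37 and Anxa1 at 1.37.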

How the data were processed

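Total RNA of sorted cells was sequenced after ribosomal RNA depletion, per the labels' protocols. The deposited table holds a signal of normalised counts that the authors scaled by 1 factor per library. Tools listed in the submitters' processing notes are DESeq2 1.22.1, StringTie 1.3.3b, HISAT2 2.1.0 and Trim Galore 0.5.0, with build mm10 and no role for each. Every gene is typed protein coding. The lowest positive value of a library was taken as 1 count, and 100% of its values were then whole multiples (tolerance 0.01), called recovered counts. Whether they are read counts or derived from coverage is not given in the sources used here, and the intervals cover only spread between libraries. No replicate pair agreed within sampling noise (chi-square per degree of freedom 28.6 to 47.4).

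I/R was compared with sham in limma 3.58.1 (R 4.3.3) on log2(value + 1) with an intensity trend, for genes with a mean of at least 10, two-sided with Benjamini-Hochberg adjustment over all tested genes. The added 1 draws fold changes of low genes towards 0. edgeR 4.0.16 and DESeq2 1.42.0 were run on recovered counts, and scripts were checked on simulated data. An exact permutation test of 3 against 3 cannot go below p = 0.1. Exon lengths and gene coordinates come from GENCODE release M21 on GRCm38, the assembly that mm10 names. The members, gene lists, tests and motifs were chosen with earlier results of these data known. Where a symbol had several identifiers, that with the highest mean was used. Named pathway genes are those past the threshold and up to 3 per list with the smallest unadjusted p among means of at least 50. Outside that rule Pla2g4a, Hpgd, Alox12, Alox8, Ggt1, Cyp4a10, Cyp4a14, Pla2g4b, Ltb4r1 and Ptger3 were named after their values were seen. So were the marker F13a1, and the markers Pf4, Myh11 and Col1a1 for the libraries they are set beside. Alternatives covered pseudocounts of 0.5 and 4, filters, scaling, the trend, the replicate block, count models and libraries left out.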

Additional observations from a re-analysis of the deposited data

How the results depend on the processing

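Of 169 member estimates under alternatives, 156 kept their sign, 13 turned and 0 passed the threshold. Alox5ap, Lta4h, Ltc4s, Ptgs1, Hpgds and Ptges kept their sign in every alternative run, and a mean filter of 50 left Ptges untested. The count of all genes called higher, 4, was 35 in DESeq2, 1 in edgeR, 1 with a mean filter of 50, and 0 without the trend or without both shallowest libraries, and 0 to 20 with single libraries left out, 20 being without sham library 1. The count lower, 0, was 7 in DESeq2 and 0 to 2 with single libraries left out. In the pathway lists DESeq2 called 1 gene higher against 0 by limma.

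Ptgis turned to 0.015 in DESeq2, 0.019 in edgeR and 0.26 without both shallowest libraries, and ran from -0.50 to 0.22 with single libraries left out. In the same settings Ptgs2 had -0.0059, -0.0047 and -0.285 and ran from -0.19 to 0.17. Tbxas1 had 0.018 without both shallowest libraries and ran from -0.21 to 0.016. Alox5 ran from -0.23 to 1.21, Cmklr1 from -0.52 to 0.24, Cyp2c44 from -0.47 to 0.065, Cyp4a12a from -0.91 to 0.080 and Ptger2 from -0.061 to 0.50, and Cyp4f13 had 0.10 without both shallowest libraries. The median over members, 0.26, was 0.082 in DESeq2, 0.091 in edgeR, 0.38 without both shallowest libraries and 0.076 to 0.35 with single libraries left out. The count of members higher in every I/R library, 3, was 5 without both shallowest libraries and 3 to 5 with single libraries left out, and the highest was without sham library 1. With fewer libraries more of all tested genes separated too, 12.3% being higher without sham library 1 against 5.11% with all 6. That share is not given here for the other settings. The cause of these shifts was not tested, beyond the fewer samples that leaving out libraries brings.

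Replicate numbers have no stated meaning. Deviations of same-numbered libraries correlated at -0.02, -0.21 and -0.0014 (Pearson r across 13434 genes, which are not independent replicates), so the numbers were not taken as pairs. With the replicate block limma called 0 genes higher and 0 lower, and 0 members. Depth limits Ltc4s, Alox5 and Ptges, which rest on 15 to 183 recovered counts per library.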

Other observations

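Of the wider pathway, 13 genes of the table lay under the filter on low values. Ltb4r1 and Pla2g4b, picked from them by their values, were seen almost only after I/R. Others of the 13 were seen only in sham libraries, with 0 recovered counts in each I/R library. Ptger3 had 12, 4 and 0 in sham libraries 1, 2 and 3, and Alox8 had 0, 10 and 0. The share of all untested genes with either pattern is not given here. Ltb4r1, which encodes the high-affinity receptor of leukotriene B4, had 10, 15 and 6 recovered counts in I/R libraries 1, 2 and 3, against 0, 2 and 0 in sham libraries. Pla2g4b, a phospholipase A2 gene, had 29, 5 and 13 recovered counts in I/R libraries and 0 in each sham library, where a count of 0 allows up to 3 counts. Cyp4a14, an omega-hydroxylase gene, went the other way with 0, 0 and 2 recovered counts in I/R libraries, against 15, 7 and 35 in sham libraries. Ggt1, whose product converts leukotriene C4 to D4, had 3, 0 and 0 in I/R libraries, against 23, 21 and 4 in sham libraries. Overlaps of these genes with their neighbours were not checked, and Cyp4a14 and Ggt1 had a limma adjusted p of 0.985.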
